A study of Cardamine hirsuta with 24 samples.

Results

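The change of the transcriptome between 2 h and 4 h after induction of *ChCUC1* was described in *Cardamine hirsuta* shoot apices. Its libraries are the 3 labelled Dex at 2 h and the 3 labelled Dex at 4 h, chosen by treatment and time alone, 6 of the 24 RNA-seq libraries of the series. All plants were of the genotype Oxford and carried *RCOp::LhG4:GR; Op::ChCUC1:Venus*. In this transgene the *RCO* promoter, which is active in small foci along the margin of developing leaves, drives an activator that dexamethasone releases into the nucleus, where it switches on a fusion of ChCUC1 with the fluorescent protein Venus. Seedlings 12 days old stood in 10 µM dexamethasone (Dex) or in 0.1% DMSO (Mock), and were harvested after 2, 4, 6 or 8 h without cotyledons, roots and mature leaves. Each replicate pooled 20 seedlings, and each of the 8 groups of time and treatment had 3 replicates. Mock plants carried the same transgene. Each library also held RNA of the cells of the apex outside these foci.

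CUC proteins are NAC transcription factors that mark boundaries between organs and repress growth there. In leaves they act at the margin, and repeated boundaries along the margin give rise to the leaflets of *C. hirsuta*. WAG1 and WAG2 are AGC protein kinases that act in auxin transport. A comparison of 4 h with 2 h within Dex holds the treatment constant and asks what moved with time in induced plants. The same comparison in Mock, which shares no library with it, gives the change with time without induction.

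Levels are given in CPM, read counts scaled to library size with TMM factors from all 24 libraries, in the order of replicates 1, 2 and 3. A log2 fold change is that of 4 h over 2 h, followed by an approximate standard error. This was derived from the test, as the size of the change over the square root of the quasi-likelihood F. Adjusted p-values come from quasi-likelihood tests in edgeR, adjusted by Benjamini-Hochberg across every gene tested, with n = 3 and 3. A gene is said to have been called, to have risen or to have fallen, where its fold exceeded 1.5 and its adjusted p lay below 0.05. No source describes the replicates beyond calling them independent, so p-values measure the spread between these pools.

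The 6 libraries held between 12.9 M and 23.0 M gene counts, the shallowest being replicate 2 at 4 h, and libraries of the same time differed by more than counting error (ratios of chi-square to degrees of freedom between replicates ran from 5.57 to 86.2). At 2 h replicates 1 and 3 were closest to each other (Pearson r of log2 CPM across genes 0.985), and at 4 h replicates 2 and 3 were (0.988). Replicate 1 at 4 h correlated better with replicate 1 at 2 h (0.961) than with the other libraries of its own time (0.944 and 0.946). Replicate 2 at 2 h correlated with replicates 2 and 3 at 4 h (0.954 and 0.956) about as well as with replicate 1 at 2 h (0.951), and best with replicate 3 at 2 h (0.969). On the first principal component, which took 62.1% of the variance, these libraries stood at -11.1 and -4.47, between -74.6 and -58.6 for the other libraries of 2 h and 76.0 and 72.7 for those of 4 h. Replicate 1 of 4 h thus matched a library of the other time best, replicate 2 of 2 h did not, and both stood apart from the rest of their group, so results are also given without them.

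Markers of the labelled tissue were present in all libraries. Of 14 boundary and meristem genes 12 to 14 had reads in each Dex library of 2 h or 4 h, with a summed level of 179 to 223 CPM at 2 h and 169 to 181 CPM at 4 h. Of 16 root hair genes, which mark an organ that was cut away, all 16 had reads in the 3 libraries of 2 h and in replicate 1 of 4 h, whereas 7 were at 0 in each of replicates 2 and 3 of 4 h. Their summed level was 287, 46.2 and 237 CPM at 2 h and 31.1, 4.88 and 4.26 CPM at 4 h. In Mock it was 3.54, 83.3 and 59.6 CPM at 2 h and 4.67 to 9.11 CPM at 4 h, so that replicate 1 of Mock at 2 h lay below every library of 4 h. *MRH4* and *MRH6*, both needed for root hair growth, were among the genes at 0 in replicates 2 and 3 of Dex at 4 h and in replicate 1 of Mock at 2 h. Many of the genes that fell follow this marker list, and its part in their change was not tested. In bulk samples fewer cells of a type and less RNA per cell cannot be told apart.

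**Figure D1:**
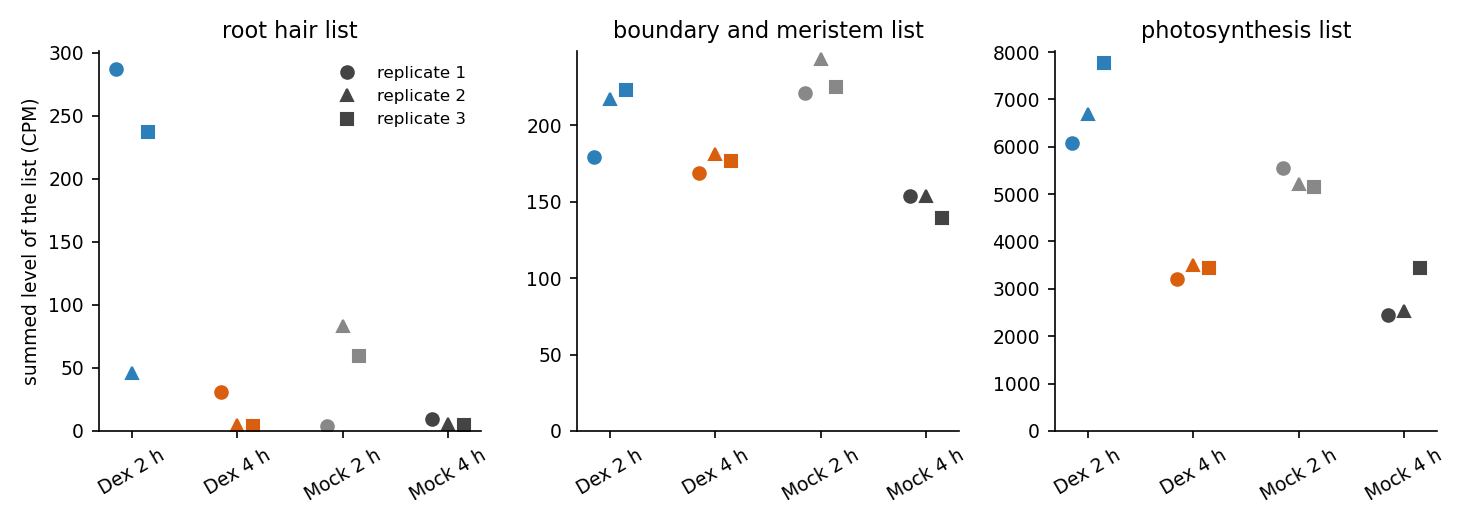
Summed level in CPM of 3 marker lists in each library of 2 h and 4 h, with 1 symbol per replicate. The root hair list ran from 46.2 to 287 CPM in Dex at 2 h and from 4.26 to 31.1 CPM in Dex at 4 h, and replicate 1 of Mock at 2 h stood at 3.54 CPM, while the photosynthesis list fell within a narrower spread from 6076 to 7762 CPM down to 3210 to 3500.4 CPM in Dex.

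*ChCUC1* (CARHR090150), the induced gene, checks the labels. It stood at 7.62, 6.18 and 7.91 CPM in Dex at 2 h and at 9.67, 11.6 and 8.81 CPM at 4 h, against 2.25 to 4.40 CPM in Mock at 2 h and 1.25 to 3.5 CPM in Mock at 4 h. All 6 Dex libraries lay above all 6 Mock libraries of these times, and the 3 of 4 h lay above the 3 of 2 h by a narrow margin. The log2 fold change of 4 h over 2 h was 0.47 ± 0.14 (adjusted p = 0.0857), and the gene was called under none of the 15 alternatives run (adjusted p from 0.0702 to 0.574). In Mock the value was -0.31 ± 0.39 (adjusted p = 0.622). Transcripts of the transgene and the endogenous copy share 1 gene model here and cannot be told apart.

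*WAG1* (CARHR044000) stood at 6.24, 1.57 and 6.02 CPM at 2 h and at 4.44, 1.89 and 1.67 CPM at 4 h. *WAG2* (CARHR089410) stood at 6.96, 3.28 and 7.15 CPM at 2 h and at 5.96, 1.42 and 1.55 CPM at 4 h. For both kinases replicates 1 and 3 of 2 h and replicate 1 of 4 h were high, the other 3 libraries were low, and the times overlapped. Log2 fold changes were -0.77 ± 0.64 for *WAG1* (adjusted p = 0.586) and -0.93 ± 0.80 for *WAG2* (adjusted p = 0.601). Without replicate 2 of 2 h and replicate 1 of 4 h they came to -1.81 (adjusted p = 0.113, range over the alternatives 0.113 to 0.857) and -2.26 (adjusted p = 0.171, range 0.0781 to 0.864), and neither gene was called under any alternative.

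**Figure D2:**
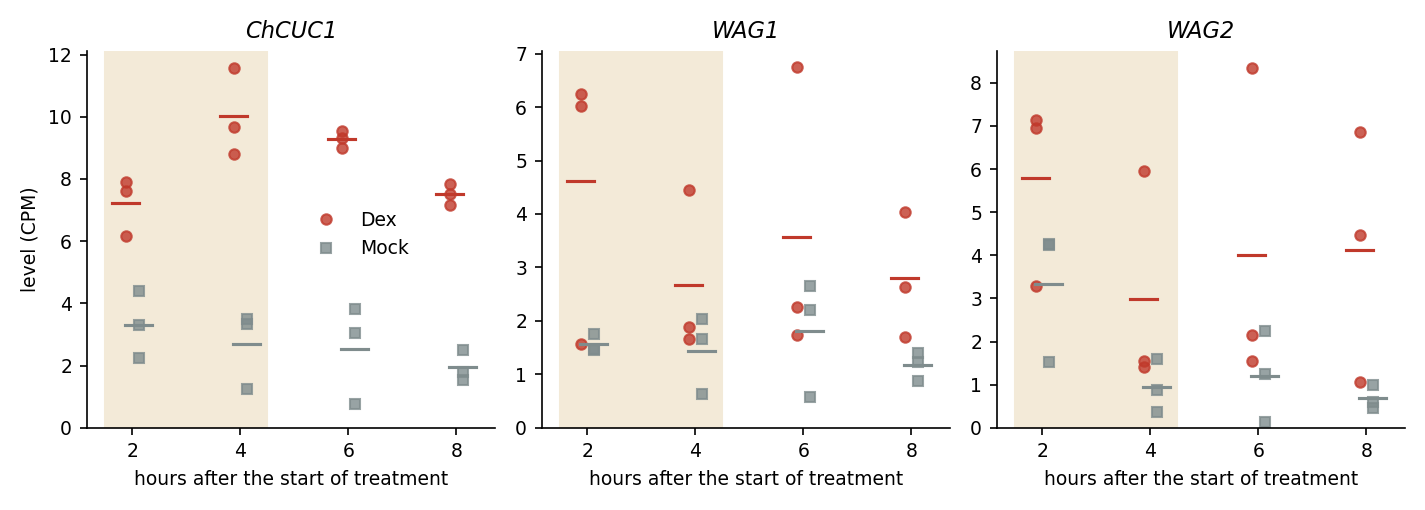
Level in CPM of *ChCUC1*, *WAG1* and *WAG2* in each library (points) with the mean of 3 replicates (bars), by hours after the start of treatment, for Dex and Mock. The shaded band holds the times compared here. *ChCUC1* lay between 6.18 and 11.6 CPM in the Dex libraries of the band and at or under 4.40 CPM in Mock, whereas *WAG1* and *WAG2* overlapped between 2 h and 4 h.

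Across 21313 genes tested, 283 rose between 2 h and 4 h (1.33% of the genes tested) and 893 fell (4.19%), 5.52% in either direction, while the median log2 fold change of all genes was 0.02. Falls were larger than rises: the median log2 fold change was -2.20 for the genes that fell, 482 of which fell more than 4-fold, and 0.91 for those that rose, 17 of which rose more than 4-fold. The 3 libraries of 1 time all lay above the 3 of the other in 282 of the 283 rises and 888 of the 893 falls, against 10.3% of all genes tested with every library of 4 h higher and 13.5% with every one lower. Calls were made from these same libraries and so favour genes without overlap, which makes these counts a description only. Genes that fell were mostly low in abundance, with a median over genes of 6.49 CPM at 2 h and 1.27 CPM at 4 h. The median of these 893 genes was 7.10, 4.95 and 6.79 CPM in the libraries of 2 h and 1.70, 0.945 and 1.04 CPM in those of 4 h, so that the libraries which stood apart lay on the inner side of their group. An unadjusted p under 0.05 was found for 4022 genes.

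These counts depended on single libraries. Without Dex 2 h replicate 1 576 genes were called, without Dex 2 h replicate 3 480, without Dex 4 h replicate 2 472 and without Dex 4 h replicate 3 459. With both libraries that stood apart left out, 619 genes rose (2.86%) and 1540 fell (7.13%), 9.99% in either direction, among them 962 of the 1176 genes called with all libraries. Those libraries lay between the times and were chosen after the data were seen, which favours a higher count without them. A fit of the 6 libraries alone, without Dex at 6 h and 8 h, called 171 rises and 558 falls.

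**Figure D3:**
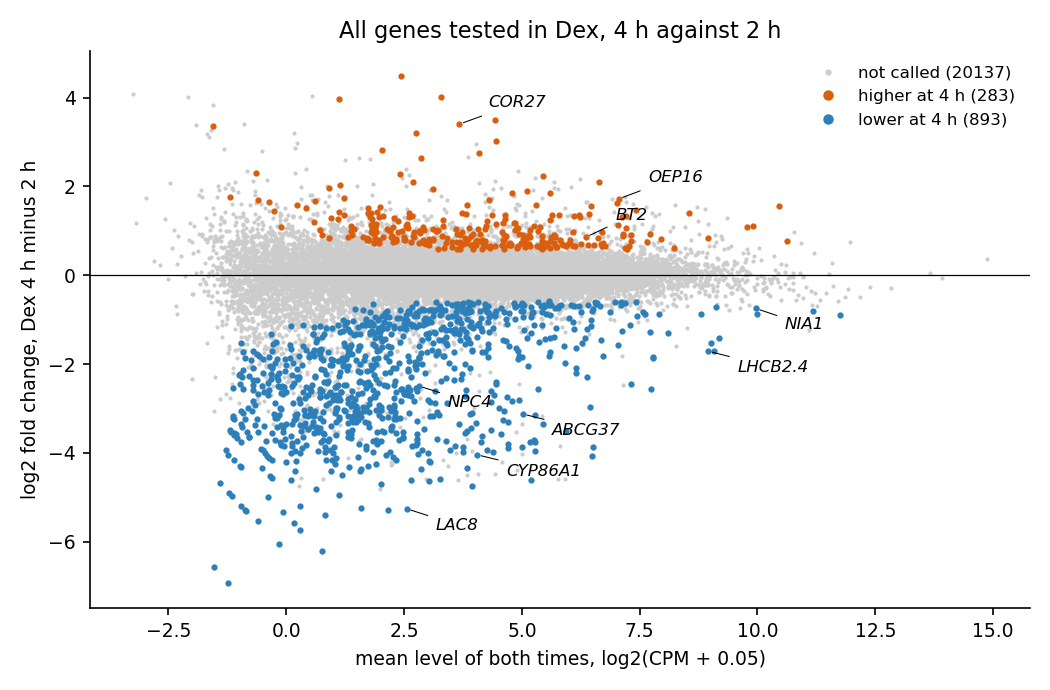
Log2 fold change of 4 h over 2 h in Dex against the mean level of both times on a log2 scale of CPM, with 1 point per gene for 21313 genes. The 893 genes that fell spread further from 0, and towards lower levels, than the 283 that rose. Selected named genes are marked.

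Root hair genes were prominent among the falls, on a list chosen with earlier results of these data known. Of the 15 root hair genes tested, 7 fell and 0 rose, beside 4.19% of all genes tested that fell and 1.33% that rose. The median of the 15 was -3.99 against 0.02 over all genes, and all 15 had a negative log2 fold change. The remaining 8 were not called, with values from -4.61 for *LRX1*, an extensin-like wall protein of root hairs (adjusted p = 0.0516), to -1.35 for *RHS16* (adjusted p = 0.0892). *RHS15* (CARHR232620), named for root hair specific expression in *Arabidopsis*, stood at 10.1, 2.90 and 9.98 CPM at 2 h and at 0.641, 0.0788 and 0.0576 CPM at 4 h. It fell by 4.70 ± 0.79 on the log2 scale (adjusted p = 0.00687), with no overlap, and was called under all 15 alternatives. *RHS19* (CARHR280200), the secreted peroxidase 73, fell by 3.898 ± 0.85 (adjusted p = 0.0241), from 74.8, 10.3 and 61.4 CPM to 7.06, 1.26 and 1.21 CPM. *MRH4* (CARHR182330), a COBRA-like protein of the cell surface, fell by 4.96 ± 1.11 (adjusted p = 0.0257), from 6.19, 0.951 and 5.35 CPM to 0.321, 0 and 0 CPM. In each of these genes replicate 2 was the lowest library of 2 h and replicate 1 the highest of 4 h. The list had 1 call when Dex 2 h replicate 1 or 3, or Dex 4 h replicate 2 or 3, was left out. All 15 members were called without the libraries that stood apart. Those libraries were picked after the data were seen, with the lowest summed root hair level of 2 h and the highest of 4 h. Leaving them out widened the gap between the times, so this count is not independent evidence. Of the 6 members paired through binding tables, 4 fell in the main fit.

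The 12 largest falls among genes with a symbol and a mean of at least 5 CPM followed the same order of libraries. *LAC8* (CARHR211370) and *LAC7* (CARHR083560) encode laccases, copper enzymes that oxidise phenolics in the cell wall. *LAC8* stood at 16.4, 3.04 and 14.7 CPM at 2 h and at 0.641, 0.158 and 0 CPM at 4 h, a fall of 5.26 ± 0.98 (adjusted p = 0.0117). *LAC7* went from 88.3, 34.8 and 94.5 CPM to 11.5, 0.630 and 1.44 CPM, a fall of 3.96 ± 0.90 (adjusted p = 0.0290). Both were high in replicates 1 and 3 of 2 h, and their times did not overlap.

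Wall proteins and wall enzymes were a further group. *XTR9* (CARHR233270), a xyloglucan endotransglucosylase that cuts and rejoins wall polymers, stood at 43.4, 5.66 and 39.8 CPM at 2 h and at 2.89, 0.0788 and 0.0576 CPM at 4 h, and fell by 4.74 ± 1.21 (adjusted p = 0.0460). *PRP3* (CARHR172950), a proline-rich protein of root hair walls in *Arabidopsis*, stood at 42.5, 3.66 and 35.4 CPM and then at 3.39, 0.158 and 0.173 CPM (-4.34 ± 1.11, adjusted p = 0.0462). *AGP3* (CARHR246520), an arabinogalactan protein, stood at 30.8, 7.18 and 24.8 CPM and then at 3.3, 0.158 and 0.345 CPM (-3.94 ± 0.83, adjusted p = 0.0210). The lowest library of 2 h and the highest of 4 h lay close together in *PRP3*, at 3.66 and 3.39 CPM. *XTR9* was called under 7 of the 15 alternatives, *PRP3* under 8 and *AGP3* under 10.

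Enzymes and a channel made up the other falls of this size. *CYP86A1* (CARHR272790), a fatty acid hydroxylase of suberin synthesis in roots, stood at 31.1, 24.1 and 38.6 CPM at 2 h and at 3.89, 0.551 and 0.979 CPM at 4 h (-4.04 ± 0.57, adjusted p = 0.00282). *GMD1* (CARHR281430), which makes the precursor of GDP-fucose, stood at 20.1, 7.51 and 27.4 CPM and then at 1.60, 0.473 and 0.0576 CPM (-4.59 ± 0.76, adjusted p = 0.00651). *GAD* (CARHR195890), glutamate decarboxylase, which makes GABA, stood at 78.2, 53.3 and 84.1 CPM and then at 9.67, 3.31 and 2.88 CPM (-3.74 ± 0.48, adjusted p = 0.00188). These 3 genes kept a clear gap between the times and were called under all 15 alternatives. *TIP2;3* (CARHR173920), a water channel of the vacuole membrane, stood at 44.8, 10.5 and 52.3 CPM and then at 4.95, 0.551 and 1.27 CPM (-3.93 ± 0.76, adjusted p = 0.0140). *SBP3* (CARHR099780), a selenium-binding protein, stood at 18.8, 2.38 and 17.84 CPM and then at 1.92, 0.158 and 0.115 CPM (-4.02 ± 0.99, adjusted p = 0.0390). *TIP2;3* and *SBP3* were called under 11 and 9 of the 15 alternatives. In Mock at 2 h *CYP86A1* stood at 4.38, 38.0 and 27.4 CPM, *GMD1* at 0.674, 12.3 and 8.55 CPM and *GAD* at 6.29, 99.0 and 70.2 CPM. These 3 genes were thus lowest in replicate 1 of Mock, as the root hair list was, although they kept a gap in Dex. Means of these 12 genes stayed low later, between 0.0735 CPM in *LAC8* and 3.74 CPM in *RHS19* at 6 h in Dex.

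**Figure D4:**
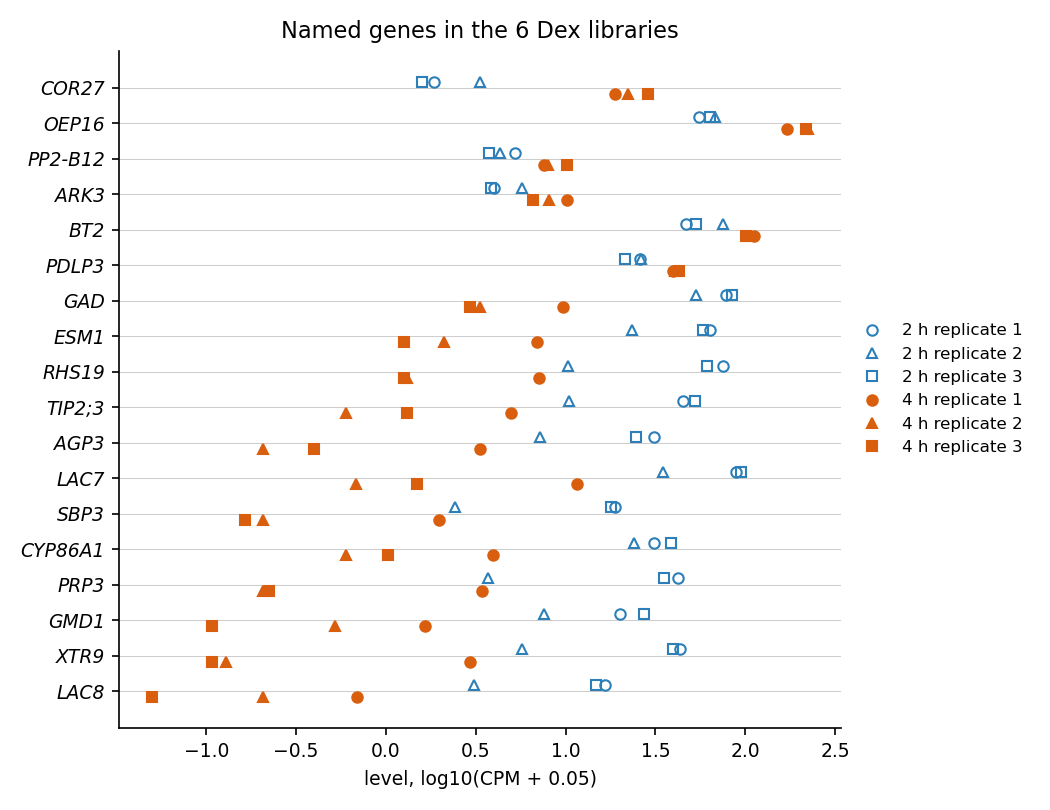
Level of each named gene on a log10 scale of CPM plus 0.05 in the 6 Dex libraries, open blue symbols for 2 h and filled orange symbols for 4 h, with the shape giving the replicate. In the 12 genes that fell, replicate 2 of 2 h and replicate 1 of 4 h lay closest to the other time, while both sets of genes were chosen to have no overlap between the times.

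A few genes of nutrient uptake fell. Of 12 sulphate and phosphate genes 3 fell and 0 rose (median 0.31), and of 16 nitrate and ammonium genes 2 fell and 0 rose (median -0.68), beside 4.19% of all genes tested that fell and 1.33% that rose. *SULTR1;2* (CARHR071460), a high-affinity sulphate uptake carrier of roots in *Arabidopsis*, stood at 115, 50.02 and 102 CPM at 2 h and at 29.4, 33.4 and 25.8 CPM at 4 h. It fell by 1.59 ± 0.28 (adjusted p = 0.00857) without overlap. Its paralogue *SULTR1;1* (CARHR259640) stood at 9.20, 0.999 and 7.15 CPM and then at 0.367, 0 and 0 CPM (-5.25 ± 1.05, adjusted p = 0.0160), and the ammonium carrier *AMT1;5* (CARHR100380) at 5.86, 0.761 and 4.27 CPM and then at 0.367, 0.0788 and 0 CPM (-4.40 ± 1.02, adjusted p = 0.0392). Both were high in replicates 1 and 3 of 2 h, as the root hair list was. *NIA1* (CARHR071270), nitrate reductase, behaved otherwise, with 1145, 1313 and 1301 CPM at 2 h and 821, 693 and 721 CPM at 4 h (-0.75 ± 0.16, adjusted p = 0.0229), and none of its libraries of 2 h stood apart.

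*NPC4* (CARHR077540), a lipid-cleaving phospholipase C known from phosphate starvation, fell with the smallest adjusted p of any gene with a symbol. It stood at 12.0, 13.1 and 10.4 CPM at 2 h and at 2.43, 2.05 and 1.78 CPM at 4 h. The change was -2.49 ± 0.18 (adjusted p = 6.66e-05), and it was called under all 15 alternatives (adjusted p up to 0.00347). Unlike the root hair genes, its replicates at 2 h lay within 10.4 to 13.1 CPM.

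All 14 photosynthesis and chlorophyll genes tested had negative values (median -0.63), of which 2 passed the test, beside 4.19% of all genes tested that fell. *LHCB2.4* (CARHR149150), a light-harvesting antenna protein, stood at 668, 752 and 866 CPM at 2 h and at 199, 250.1 and 248 CPM at 4 h, and fell by 1.71 ± 0.25 (adjusted p = 0.00319). *LHCB4.2* (CARHR083270), a minor antenna protein, stood at 1065, 1271 and 1636 CPM and then at 630.2, 785 and 755 CPM (-0.87 ± 0.23, adjusted p = 0.0483). Neither overlapped between the times. *LHCB2.4* was called under all 15 alternatives and *LHCB4.2* under 6, and it was lost without any single one of the 6 libraries (adjusted p up to 0.182). Later means in Dex were 61.2 CPM at 6 h and 13.4 CPM at 8 h for *LHCB2.4*. *GLK2*, a transcription factor that activates such genes, stood at -0.92 ± 0.25 (adjusted p = 0.0556).

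Of the boundary, auxin transport, jasmonate and WRKY lists, each had 1 gene that fell, of 12, 15, 12 and 32 tested. Over all genes tested 4.19% fell. *PLT3* (CARHR202780), an AP2 transcription factor of stem cell niches and lateral organ positioning, stood at 10.3, 38.2 and 17.62 CPM at 2 h and at 3.99, 6.70 and 5.93 CPM at 4 h (-1.99 ± 0.41, adjusted p = 0.0179). It was 1 of 12 boundary and meristem genes tested to be called, and the list had a median of -0.05. *ABCG37* (CARHR163380), an exporter of auxin precursors and phenolics in roots, stood at 41.5, 83.3 and 50.3 CPM and then at 5.50, 7.48 and 7.08 CPM (-3.12 ± 0.48, adjusted p = 0.00421), the 1 call among 15 auxin transport genes (median -0.27). *WRKY23* (CARHR142660), a transcription factor that affects auxin distribution, stood at 12.9, 24.4 and 16.2 CPM and then at 10.7, 8.59 and 10.4 CPM (-0.84 ± 0.22, adjusted p = 0.0475). In these 3 genes replicate 2 was the highest Dex library of 2 h, the reverse of the root hair order in Dex. In Mock at 2 h, however, all 3 were lowest in replicate 1, as the root hair list was. There *PLT3* stood at 12.97, 61.9 and 44.1 CPM, *ABCG37* at 9.15, 171 and 119 CPM and *WRKY23* at 24.4, 42.8 and 37.2 CPM. *ABCG37* was called under all 15 alternatives, *PLT3* under 12 and *WRKY23* under 6. *CYP94B1* (CARHR277300), which oxidises the active jasmonate, stood at 10.4, 9.42 and 12.4 CPM and then at 4.86, 0.709 and 1.96 CPM (-2.05 ± 0.44, adjusted p = 0.0223). It was called under 10 of the 15 alternatives, and in Mock at 2 h it stood at 4.89, 28.8 and 20.2 CPM, also lowest in replicate 1.

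Few genes of secondary metabolism passed the test. Of 16 glucosinolate genes 2 fell (median -0.70) and of 15 flavonoid genes 1 fell (median -1.03), with 0 rises in either list, beside 4.19% of all genes tested that fell. *ESM1* (CARHR089110), a modifier of glucosinolate breakdown, was also among the 12 largest falls, with 63.9, 23.49 and 58.0 CPM at 2 h and 6.92, 2.05 and 1.21 CPM at 4 h (-3.81 ± 0.77, adjusted p = 0.0179). *NSP4* (CARHR091610), which directs that breakdown to nitriles, stood at 45.9, 32.8 and 54.9 CPM and then at 21.9, 9.22 and 11.6 CPM (-1.64 ± 0.37, adjusted p = 0.0265). *MYB12* (CARHR142850), an activator of flavonol synthesis, stood at 1.67, 2.76 and 2.16 CPM and then at 0.550, 0.788 and 0.633 CPM (-1.75 ± 0.33, adjusted p = 0.0120). None of these 3 overlapped between the times. *ESM1* and *NSP4* were each called under 10 of the 15 alternatives and *MYB12* under 14. In Mock at 2 h all 3 were lowest in replicate 1, as the root hair list was, with *ESM1* at 1.18, 51.9 and 35.9 CPM. Among 24 xyloglucan and expansin genes *XTR9* and *XTH13* fell and *XTH9* rose (median -0.56), beside 4.19% of all genes tested that fell and 1.33% that rose. *XTH13* (CARHR271310) stood at 7.96, 0.713 and 5.44 CPM and then at 0.596, 0 and 0 CPM (-4.31 ± 1.06, adjusted p = 0.0387), and was called under 8 of the 15 alternatives.

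Genes that rose did so by less. *COR27* (CARHR181240), a regulator of the circadian clock and of freezing tolerance that also responds to cold, stood at 1.81, 3.28 and 1.53 CPM at 2 h and at 18.9, 22.2 and 28.7 CPM at 4 h. It rose 10.6-fold (3.403 ± 0.30, adjusted p = 1.95e-04) and was called under all 15 alternatives (adjusted p up to 0.00425). *BOA* (CARHR273030), a MYB-related factor of the clock, stood at 1.43, 2.19 and 3.19 CPM and then at 4.90, 5.04 and 4.202 CPM (1.05 ± 0.26, adjusted p = 0.0387). These were the calls among 6 clock and light genes tested, beside 1.33% of all genes tested that rose. The list had a median of 0.46, and only 6 of its 22 written genes could be paired. *BOA* was called under 8 of the 15 alternatives and not without the libraries that stood apart (adjusted p = 0.114, up to 0.128 over the alternatives). *BOA* continued to 9.93 CPM at 6 h and 12.0 CPM at 8 h in Dex.

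*OEP16* (CARHR122070), a channel of the outer plastid envelope, stood at 55.2, 67.7 and 63.4 CPM at 2 h and at 172, 223 and 217 CPM at 4 h. It rose 3.29-fold (1.72 ± 0.20, adjusted p = 8.87e-04), the second largest rise among genes with a symbol and at least 5 CPM. *BT2* (CARHR157140), a BTB protein that responds to sugar and nitrogen status, stood at 46.7, 75.6 and 52.9 CPM and then at 112, 105 and 100.3 CPM (0.86 ± 0.19, adjusted p = 0.0225). It was the 1 call among 8 sugar starvation genes (median -0.63), beside 1.33% of all genes tested that rose. *PDLP3* (CARHR127330), a protein of plasmodesmata, went from 26.1, 26.4 and 21.3 CPM to 39.4, 40.7 and 42.7 CPM (0.74 ± 0.13, adjusted p = 0.00933). The F-box gene *PP2-B12* (CARHR188890) went from 5.19, 4.28 and 3.69 CPM to 7.56, 7.96 and 10.1 CPM (0.97 ± 0.17, adjusted p = 0.00824), and the receptor kinase gene *ARK3* (CARHR227980) from 3.95, 5.66 and 3.78 CPM to 10.2, 8.04 and 6.56 CPM (0.89 ± 0.23, adjusted p = 0.0440). These 5 genes were chosen to have no overlap between the times. *PDLP3* and *PP2-B12* were called under 13 of the 15 alternatives, *BT2* under 9 and *ARK3* under 8. *XTH9* (CARHR251660), a xyloglucan enzyme of growing shoot tissue, stood at 71.4, 98.5 and 70.7 CPM and then at 97.6, 148 and 148 CPM (0.72 ± 0.18, adjusted p = 0.0442), was called under 9 of the 15 alternatives, and here replicate 2 of 2 h lay just above replicate 1 of 4 h.

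Only 274 of the 1176 genes called could be paired with an *Arabidopsis* gene and 83 had a symbol, 8 of them among the rises. Of the genes without a counterpart, CARHR006740 had the smallest adjusted p of all rises, with 1.14, 1.09 and 1.12 CPM at 2 h and 14.4, 20.5 and 19.6 CPM at 4 h (4.01 ± 0.19, adjusted p = 8.04e-06). CARHR145660 stood at 0.286, 0.761 and 0.315 CPM and then at 9.16, 10.5 and 11.1 CPM (4.48 ± 0.28, adjusted p = 4.93e-05). CARHR001420 fell from 37.8, 31.1 and 35.8 CPM to 6.83, 5.20 and 5.07 CPM (-2.61 ± 0.16, adjusted p = 4.21e-05). CARHR270850 fell from 20.1, 22.1 and 24.5 CPM to 1.79, 2.05 and 0.806 CPM (-3.85 ± 0.27, adjusted p = 6.20e-05). All 4 were called under all 15 alternatives. In Mock at 2 h CARHR270850 stood at 1.07, 39.3 and 27.9 CPM, lowest in replicate 1 as the root hair list was.

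Of 422 genes listed as bound, 228 were tested, 26 fell and 1 rose, with a median of -0.14. The share that fell was 11.4%, beside 4.19% of all genes tested. In Mock 46 of them fell and 7 rose, beside 8.44% of all genes tested that fell there and 6.29% that rose. *RHS15*, *MRH4*, *CYP86A1*, *NIA1*, *NSP4*, *CYP94B1* and *MYB12*, described above, are among the 26. The bound gene that rose, CARHR116550, has no counterpart and was singled out after its values were seen. It stood at 4.86, 3.19 and 5.03 CPM at 2 h and at 35.4, 28.3 and 24.7 CPM at 4 h (2.75 ± 0.19, adjusted p = 6.20e-05). Its log2 fold change in Mock was 3.21. Of 28 of these bound genes, which were picked as targets with the help of these same libraries, 2 fell and 0 rose (median -0.16), so this list is not independent evidence. *TIP4;1*, a vacuolar water channel, stood at 15.1, 3.52 and 13.9 CPM and then at 3.53, 2.21 and 1.73 CPM (-2.11 ± 0.48, adjusted p = 0.0290), and *UGT72E2*, which glucosylates lignin precursors, at 35.0, 7.85 and 37.2 CPM and then at 6.28, 1.02 and 1.55 CPM (-3.13 ± 0.70, adjusted p = 0.0269). These were named after their values were seen. Both had the library order of the root hair list, in which replicates 1 and 3 of 2 h are high. Calls among bound genes numbered 9 without Dex 4 h replicate 2, 10 without either Dex 2 h replicate 3 or Dex 4 h replicate 3, 12 without Dex 2 h replicate 1 and 48 without the libraries that stood apart.

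In all, 4 of the 415 distinct genes tested from 28 textbook lists rose and 23 fell, with a median of -0.13, and 15 lists had no call. Over all genes tested 1.33% rose and 4.19% fell, and the shares among these 415 genes were near to that. Those without a call include auxin response (23 genes tested, median 0.17), auxin synthesis (10 genes, -0.08), cytokinin (16 genes, -0.49), gibberellin (10 genes, -0.16), heat shock (28 genes, -0.18), DNA replication and cell cycle (27 genes, 0.04), histones (11 genes, 0.11) and cytosolic ribosomal proteins (10 genes, 0.17). The 5 genes of the unfolded protein response had a median of 1.101 and no call in Dex. In Mock 3 of them rose (median 2.22), beside 6.29% of all genes tested there. Its chaperone gene *BIP3* stood at 2.43, 15.9 and 5.89 CPM at 2 h and at 2.29, 61.2 and 40.6 CPM at 4 h (2.11 ± 1.29, adjusted p = 0.430), so that replicate 1 of 4 h lay with the libraries of 2 h. The 8 seed maturation genes had a median of -2.11 and no call, with a summed level of 26.7 to 61.0 CPM at 2 h and 4.57 to 13.01 CPM at 4 h.

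Most genes called in Dex were also called in Mock, in the same direction. There 1365 of 21689 genes rose (6.29%) and 1830 fell (8.44%). Of the 283 genes that rose in Dex, 283 had a positive value in Mock and 189 (66.8%) were called higher. Of the 893 that fell, 886 had a negative value and 726 (81.3%) were called lower, and 0 of either set were called in the opposite direction. Their medians were 0.91 in Dex and 0.88 in Mock for the rises, and -2.20 and -2.16 for the falls. Seen from Mock, 13.8% of its rises and 39.7% of its falls were called in Dex. Replicate 1 of Mock at 2 h, where the root hair list was at 3.54 CPM, had a median of 2.08 CPM over the genes that fell in Dex, against 8.10 and 6.14 CPM in replicates 2 and 3 and 0.933 to 1.02 CPM in Mock at 4 h. *COR27* rose in Mock from 4.27, 5.35 and 5.90 CPM to 24.2, 23.2 and 38.2 CPM (2.46 ± 0.26, adjusted p = 7.54e-06), *OEP16* by 1.69 ± 0.28 (adjusted p = 5.56e-04), and *LHCB2.4* fell by 1.43 ± 0.25 (adjusted p = 9.83e-04). Named genes called in Dex that were not called in Mock include *SULTR1;2* (-0.40 ± 0.41, adjusted p = 0.532), *RHS19* (-2.18 ± 0.91, adjusted p = 0.101), *ARK3* (0.41 ± 0.23, adjusted p = 0.224), *PP2-B12* (0.90 ± 0.36, adjusted p = 0.0883), *PDLP3* (0.60 ± 0.21, adjusted p = 0.0579), *BOA* (0.64 ± 0.24, adjusted p = 0.0658) and *XTH9* (0.58 ± 0.23, adjusted p = 0.0817). They also include *MRH4* (-6.67 ± 2.26, adjusted p = 0.0526), *SULTR1;1* (-6.67 ± 2.34, adjusted p = 0.0638) and *AMT1;5* (-6.00 ± 2.44, adjusted p = 0.110). These last 3 genes stood at 0 CPM in every Mock library of 4 h. Their Mock means at 2 h were 0.641, 0.641 and 0.398 CPM, against 4.16, 5.78 and 3.63 CPM in Dex. Their Mock values rest on few reads, so the sizes of their falls cannot be compared between treatments. In Mock at 2 h *SULTR1;2* stood at 14.9, 61.4 and 44.8 CPM and *RHS19* at 0.786, 19.2 and 14.5 CPM, both lowest in replicate 1. A call in Dex alone is thus no test of a difference between treatments.

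Whether the change with time differed between treatments was tested by the difference of the 2 changes over all 24 libraries. With edgeR 0 of 21689 genes were called, 907 had an unadjusted p under 0.05, and DESeq2 called 1. The smallest p belonged to *NPC4*, which stood at 23.47, 28.8 and 27.0 CPM in Mock at 2 h, above every Dex library of that time, and at 1.75, 1.85 and 2.27 CPM in Mock at 4 h. Its fall was -2.49 ± 0.18 in Dex and -3.76 ± 0.18 in Mock, a difference of 1.26 ± 0.23 (adjusted p = 0.369). For *ChCUC1* the difference was 0.77 ± 0.54, for *WAG1* -0.65 ± 0.87 and for *WAG2* 0.89 ± 1.14, none of which passed (adjusted p = 1.00 each). *BT2*, the gene of carbon and nitrogen status, stood at 145, 89.8 and 109 CPM in Mock at 2 h and at 193, 84.5 and 103 CPM at 4 h, a change of 0.15 ± 0.29 (adjusted p = 0.763), and the difference of 0.71 ± 0.42 from the change in Dex did not pass the test.

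**Figure D5:**
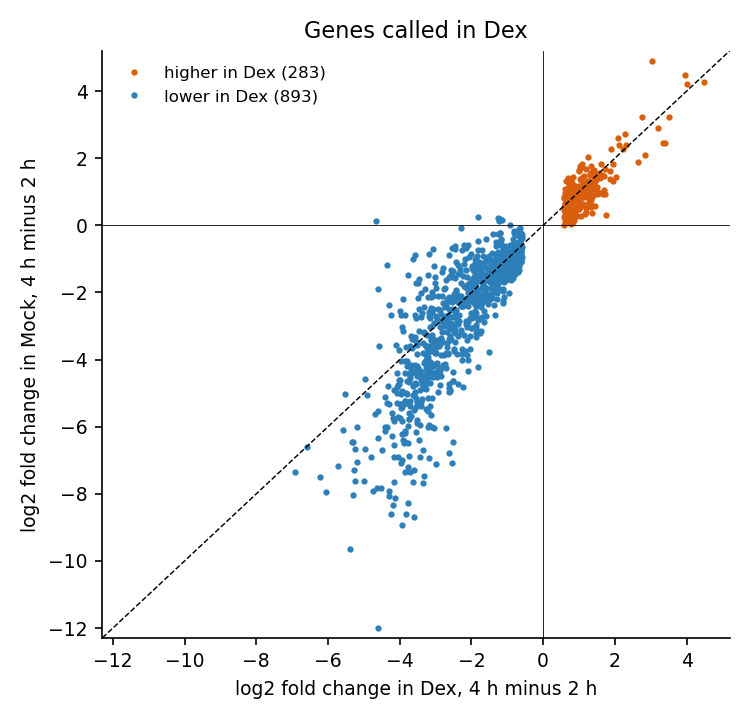
Log2 fold change of 4 h over 2 h in Mock against that in Dex for the 283 genes that rose and the 893 that fell in Dex, with a dashed line of equal change. All 283 rises and 886 of the 893 falls have the same sign in Mock, and the 2 comparisons share no library.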

How the data were processed

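Poly(A) RNA of shoot apices was sequenced from 24 libraries made with a directional kit. Per the submitters' processing notes the authors aligned reads with STAR 2.4.2a and counted them with HTSeq 0.5.4p1, and used DESeq, with no version given. Genome build, annotation and strand setting: not given in the sources used here. Reads of overlapping antisense genes may therefore be mixed. The deposited files hold raw read counts for 29458 genes per library. HTSeq summary lines were removed first; reads assigned to no gene made up 5.65% to 15.8% and ambiguous reads 0.192% to 0.370%. Gene counts ran from 12.9 M to 23.0 M per library.

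The test was edgeR 4.0.16 under R 4.3.3 (TMM, filterByExpr with a minimum count of 10, robust quasi-likelihood fit, two-sided). The Dex contrast was fitted on the 12 Dex libraries with 1 coefficient per time. The Mock contrast and the difference between treatments were fitted on all 24. Depth sets the precision: genes near 1 CPM rest on few reads per library. The scripts were tested on simulated data. Alternatives were other sets of libraries, a replicate block, RLE and upper quartile scaling, no low filter, no fold limit, DESeq2 1.42.0, each library left out, and, chosen after seeing the data, 2 libraries left out together.

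Files carry identifiers only, and the reference table matched 0 of those looked up. Names come from 4021 pairs of identifiers in the study's tables, 1846 of them only from its tables of differentially expressed genes, made from these libraries, so named genes are more often ones that changed. The pairs cover 16.1% of the genes tested. Of 519 distinct genes written on the lists 433 had a pair. Members and lists were chosen with earlier results of these data known. Genes named are *ChCUC1*, *WAG1* and *WAG2*, the up to 12 largest rises and falls among called genes with a symbol, at least 5 CPM and no overlap between times, up to 3 called members per list, 2 identifiers per direction without a counterpart, and any gene with a symbol called for the difference between treatments. Exceptions are stated. No set was tested. The authors' own comparison values were not used.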

Additional observations from a re-analysis of the deposited data

How the results depend on the processing

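Genes called in Dex numbered 1176, and 729 with the 6 libraries alone or 2159 with 2 libraries left out together. Leaving out single libraries gave 459 to 1469. Mock calls numbered 3195, 1991 with the 12 libraries of 2 h and 4 h alone, and 1555 to 4185 with single libraries left out. For the difference between treatments DESeq2 called 1 gene (CARHR046400) and leaving out Dex 2 h replicate 2 called 2, CARHR046400 and CARHR143450, so single libraries left out gave 0 to 2. Of the 40 named genes that were called, 17 remained with the 6 libraries alone and 16 to 37 with single libraries left out, 14 were called under all alternatives, and 0 changed sign. Those lost numbered 19 without Dex 2 h replicate 1, 22 without Dex 2 h replicate 3, 22 without Dex 4 h replicate 2 and 24 without Dex 4 h replicate 3. Textbook list members called numbered 27, and 16 with the 6 libraries, 48 with DESeq2, 73 with 2 libraries left out, 13 with pairs from binding tables only, and 6 to 44 with single libraries left out. *ChCUC1*, *WAG1* and *WAG2* had 0 calls throughout, and the difference between treatments for *WAG2* turned to -0.14 without Dex 4 h replicate 1. RLE, upper quartile scaling, no low filter and no fold limit left the counts of genes within 1.5 times. The cause of these changes was not tested.

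Replicate numbers paired the samples at most in part, and the main fits did not use them. Deviations of same-numbered libraries of 2 h and 4 h correlated at 0.73, 0.62 and -0.19 in Dex and at 0.27, 0.23 and 0.04 in Mock. In both treatments replicates 1 and 2 of 2 h correlated best with their own number at 4 h, and replicate 3 did not. For replicate 2 of Dex the margin was narrow, 0.62 against 0.61 with replicate 3 of 4 h. With a replicate block 2060 genes were called in Dex (596 higher and 1464 lower), and 91 textbook list members. A block within treatment gave 4483 calls in Mock. Not every library correlated best with its own number. Depth limits the genes under 1 CPM, where values of 0 do not show absence.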

Other observations

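Further families were grouped by a word in their description after their values were seen. The descriptions come from tables of genes that differed between these libraries, so the counts are not independent evidence. Of 10 aquaporin genes, water channels of the plasma and vacuole membranes, 6 fell between 2 h and 4 h in Dex and 0 rose (median -1.90), beside 4.19% of all genes tested that fell. In Mock 5 of them fell (median -1.25), beside 8.44% of all genes tested there. *TIP2;2* stood at 93.0, 20.5 and 100.4 CPM at 2 h and at 10.9, 2.84 and 2.303 CPM at 4 h (-3.72 ± 0.69, adjusted p = 0.0118 by edgeR). *PIP2B* was more abundant, at 168, 86.3 and 197 CPM and then 47.2, 58.8 and 57.6 CPM (-1.46 ± 0.26, adjusted p = 0.00891). *PIP2E* stood at 173, 158 and 226 CPM and then at 214, 205 and 183 CPM, a value of 0.12 ± 0.15 (adjusted p = 0.757), with overlap.

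Of 29 genes described as peroxidases 8 fell and 0 rose in Dex (median -2.605), of 4 laccases 3 fell, and of 7 dirigent proteins, which guide the coupling of phenolics, 6 fell, while in Mock 11, 3 and 2 of them fell. Of 12 genes described as extensins, which are wall proteins, 4 fell and 1, CARHR197550, rose (median -1.84), and in Mock 5 fell. Over all genes tested 4.19% fell and 1.33% rose in Dex, and 8.44% fell and 6.29% rose in Mock. *RCI3*, peroxidase 3, stood at 22.8, 7.18 and 22.2 CPM at 2 h and at 4.17, 2.6 and 3.68 CPM at 4 h (-2.31 ± 0.40, adjusted p = 0.00805). *LAC3* stood at 15.3, 4.71 and 14.3 CPM and then at 3.80, 1.02 and 0.921 CPM (-2.54 ± 0.60, adjusted p = 0.0333). In *TIP2;2*, *RCI3* and *LAC3* replicates 1 and 3 of 2 h were high, the order in which the summed root hair list stood (287, 46.2 and 237 CPM at 2 h), and its part in these changes was not tested. In Mock at 2 h *TIP2;2* stood at 4.66, 34.0 and 25.1 CPM, lowest in replicate 1, where the root hair list was also lowest.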
